A study of Mus musculus with 6 samples.

Results

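miR-126a and the pair miR-221-3p and miR-222-3p are microRNAs (miRNAs, short RNAs that repress messenger RNAs) known from the vessel wall and from platelets. They were followed here through 3 library preparation kits used on mouse serum. The set has 4 members, chosen by their miRBase identifiers: miR-126a-5p (MIMAT0000137), miR-126a-3p (MIMAT0000138), miR-221-3p (MIMAT0000669) and miR-222-3p (MIMAT0000670). In all, 788 miRNAs were listed in at least 1 of the 6 libraries. Of the members, 3 had reads in every library and miR-126a-3p had a row in none. Serum came from healthy 129/SVj mice of both sexes aged 2 to 9 months, sedated with tribromoethanol and bled by cardiac puncture. There was no treatment and no genetic change, and the labels separate the groups by kit alone: NEBNext Multiplex Small RNA, TruSeq small RNA v2 or TailorMix miRNA v2, with 2 libraries each. Libraries carry the number 1 or 2 of their serum, the animal is not named, and p-values therefore measure the spread between these libraries, part of which may be technical.

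The study was about removing tRNA fragments from serum RNA before sequencing, and these libraries belong to its first step, which compared how abundant such fragments were with each kit. Libraries held 165139 to 351758 reads on miRNAs, and tRNA reads made up 95.5% to 98.9% of all annotated reads. A share below means the percentage of a library's miRNA reads, unless another denominator is named. Intervals of single libraries are 95% intervals and cover counting error only, since amplified copies of a molecule were not marked and may be counted more than once.

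miR-126a comes from an intron of Egfl7, a gene of endothelial cells, and is known as a miRNA of endothelium that is also found in megakaryocytes and platelets. Its 3p arm is known to target Spred1 and Pik3r2, inhibitors of signalling from the VEGF receptor, and its 5p arm to target Dlk1. miR-221-3p and miR-222-3p are made from neighbouring hairpins on the X chromosome and are known to repress Kit, the stem cell factor receptor, and Cdkn1b, an inhibitor of the cell cycle. Serum holds no cells of its own, so a level measured in it does not tell how many cells of a type shed RNA from how much RNA each of them shed. The deposited lists hold identifiers without names, and no table pairing them was used here. The label of endothelial and platelet miRNAs was therefore not checked against other markers of these cells, and red and white blood cell miRNAs were not analysed here.

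The mature sequences are shown because a miRNA finds its targets mainly through its seed, bases 2 to 8 from the 5′ end. RefSeq (GRCm38.p6) held 3 of the 4 members, written 5′ to 3′ with the seed in capitals.
miR-126a-3p: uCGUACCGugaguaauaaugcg
miR-221-3p: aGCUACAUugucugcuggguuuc
miR-222-3p: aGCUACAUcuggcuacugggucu
miR-126a-5p was not in that table. miR-221-3p and miR-222-3p were both 23 bases long, began with the same 8 bases, AGCUACAU, and had equal bases at 11 positions when set side by side without gaps. A further run of 6 bases, CUGGGU, occurred in both near the 3′ end. The only other mature mouse miRNA with their seed in that table was miR-1928. No other miRNA there carried the seed of miR-126a-3p.

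Mir221 (chrX:19146294-19146388, minus strand) and Mir222 (chrX:19146893-19146971, minus strand) were 504 bases apart. In GENCODE release M21 no other gene overlapped either hairpin. The hairpin of Mir126a (chr2:26591357-26591429, plus strand) is printed with the 3p arm in capitals, since this arm had no reads listed.
Mir126a: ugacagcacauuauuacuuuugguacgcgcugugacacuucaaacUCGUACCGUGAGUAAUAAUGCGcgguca
On the same strand, the hairpin lay within an intron of Egfl7 in 8 annotated transcripts and within an exon of 1 transcript with a retained intron. It also lay within an intron of 1 transcript of Gm20532. On the opposite strand the same bases hold a further annotated miRNA gene, Mir126b (chr2:26591363-26591420), whose 58 bases all lie inside the Mir126a hairpin. Its 5p product is printed with the bases in capitals that are the reverse complement of miR-126a-3p, to show how far both entries coincide.
miR-126b-5p: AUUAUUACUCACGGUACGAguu
The overlap spans chr2:26591402-26591420, which is 19 bases.

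**Figure D1:**
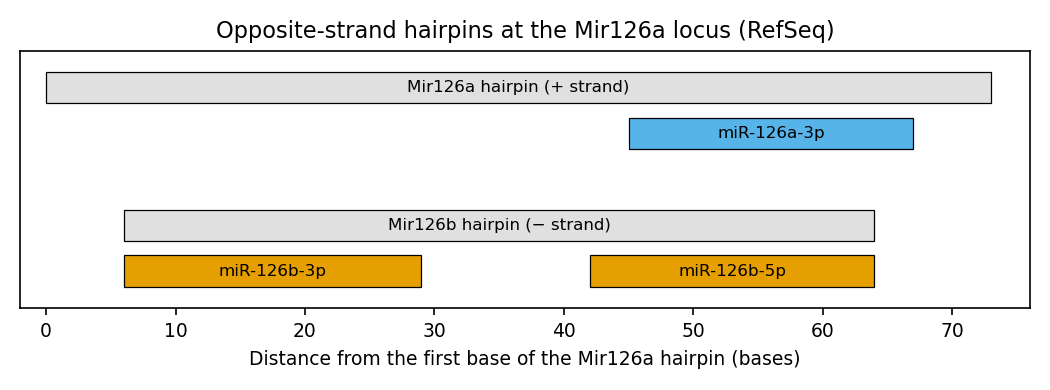
Map of the annotated hairpins and mature miRNAs at the Mir126a locus, with the distance in bases from the first base of the Mir126a hairpin on the horizontal axis. Grey bars are hairpins, the blue bar is miR-126a-3p on the plus strand and the orange bars are the products of Mir126b on the minus strand, of which miR-126b-5p shares 19 positions with miR-126a-3p.

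The arms of miR-126a were compared first. TruSeq gave miR-126a-5p 3537 reads in library 1 and 2690 in library 2. NEBNext gave it 713 and 533 reads, and TailorMix 283 and 395. miR-126a-3p was listed in no library, and unlisted was taken as 0. By counting error alone, a count of 0 allows up to 3 reads, or a share of 0.000853% in TruSeq library 1 to 0.00182% in NEBNext library 2. Were counting the only reason for the 0, miR-126a-5p would be at least 94.3-fold above the 3p arm in TailorMix library 1. For TruSeq library 1 this bound would be 1179-fold, and the other libraries lay between. These bounds do not hold if reads of the 3p arm were given to another entry. In the lists only the 5p arm had reads, in all 6 libraries. The lists carry no names, so whether miR-126b-5p was among their entries was not checked. The authors assigned reads by genomic position, and whether strand was used is not given in the sources used here. Without strand, a read on the 19 bases shared with miR-126b-5p matches both entries, so that reads of miR-126a-3p and reads of miR-126b-5p cannot be told apart by position alone. The 0 is therefore a statement about the list and not about the RNA in serum. The other product of Mir126b, miR-126b-3p (chr2:26591363-26591385), lies on the 5′ side of the Mir126a hairpin. Its overlap with miR-126a-5p was not measured, since RefSeq held no position for that arm. Reads of miR-126b-3p could thus also be counted for miR-126a-5p if strand was not used, which was not tested. A ratio of the arms could not be compared between kits, since the denominator was 0 in every library.

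miR-126a-5p was the most abundant of the 3 listed members with NEBNext and TruSeq. With TruSeq its share reached 1.01% (Wilson interval 0.973% to 1.04%) and 0.954% (0.918% to 0.990%). NEBNext libraries held 0.317% (0.295% to 0.341%) and 0.323% (0.297% to 0.351%), and TailorMix libraries 0.146% (0.130% to 0.164%) and 0.201% (0.182% to 0.221%). The pairs of the 3 kits did not overlap, but how many other miRNAs separated in this way was not counted. Differences between kits were common, with 68.6% to 77.5% of the tested miRNAs called per contrast in the fit described below. TruSeq was highest, and the TailorMix libraries were lowest and also differed from each other by more than counting error. By rank, miR-126a-5p stood at place 21 in both TruSeq libraries, of 421 and 367 miRNAs listed, at 57 and 58 of 540 and 492 with NEBNext, and at 58 and 51 of 415 and 431 with TailorMix.

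By kit, the mean share of miR-126a-5p was 0.980% ± 0.0367 for TruSeq, 0.320% ± 0.00401 for NEBNext and 0.173% ± 0.0384 for TailorMix (SD, n = 2 each). From the lowest to the highest kit this was a 5.72-fold difference of geometric means, where 1 pooled SD within kits corresponded to 1.14-fold. The 15 ways of dividing 6 libraries into 3 pairs gave no larger ratio of between-kit to within-kit spread (two-sided exact permutation test, p = 0.0667, which is the lowest the design allows). The order of the lower kits depended on the denominator. Scaled to 1000000 annotated reads of all small RNA classes, miR-126a-5p had 295 ± 13.2 reads for TruSeq, 64.8 ± 13.8 for TailorMix and 29.3 ± 2.99 for NEBNext (SD, n = 2 each). NEBNext thus took the place of TailorMix as the lowest.

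By share of miRNA reads, miR-221-3p followed the opposite order. TailorMix gave 2466 and 2496 reads, NEBNext 272 and 175, and TruSeq only 9 and 8. As a share, the TailorMix libraries held 1.27% (Wilson interval 1.23% to 1.33%) and 1.27% (1.22% to 1.32%), the NEBNext libraries 0.121% (0.107% to 0.136%) and 0.106% (0.0914% to 0.123%). The TruSeq libraries, the deepest in miRNA reads, held 0.00256% (0.00135% to 0.00486%) and 0.00284% (0.00144% to 0.00560%). The pairs of the 3 kits lay far apart and did not overlap, again without a count of other miRNAs that separated likewise. In both TailorMix libraries it ranked 18th, ahead of the other members, against places 79 and 82 with NEBNext and 178 and 170 with TruSeq.

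The mean share of miR-221-3p was 1.27% ± 0.00491 for TailorMix, 0.113% ± 0.0106 for NEBNext and 0.00270% ± 0.000196 for TruSeq (SD, n = 2 each). Geometric means of the highest and the lowest kit differed 472-fold, against 1.07-fold for 1 pooled SD within kits. No other grouping of the 6 libraries separated the shares more (two-sided exact permutation p = 0.0667, again the lowest the design allows). With 1 count added to every value, so that miRNAs with 0 reads could be included, the range of the share of miR-221-3p over the 6 libraries was 8.81 on the log2 scale, the 8th widest of 360 miRNAs tested, whose median range was 3.80. That of miR-126a-5p, 2.78, was below this median.

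For miR-222-3p, TailorMix gave 554 and 495 reads, NEBNext 476 and 345, and TruSeq 14 and 5. TailorMix libraries held a share of 0.286% (Wilson interval 0.264% to 0.311%) and 0.251% (0.230% to 0.275%), NEBNext libraries 0.212% (0.194% to 0.232%) and 0.209% (0.188% to 0.232%). TruSeq libraries held 0.00398% (0.00237% to 0.00668%) and 0.00177% (0.000757% to 0.00415%). Like miR-221-3p it was lowest with TruSeq, but the other kits stood close together. The intervals of both NEBNext libraries overlapped that of TailorMix library 2.

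The mean share of miR-222-3p was 0.269% ± 0.0247 for TailorMix, 0.210% ± 0.00196 for NEBNext and 0.00288% ± 0.00156 for TruSeq (SD, n = 2 each). Geometric means of TailorMix and TruSeq differed 101-fold, with 1.40-fold for 1 pooled SD within kits (two-sided exact permutation p = 0.0667). Most of this spread lay between the TruSeq libraries, with 14 and 5 reads. Together the members took 1.71% and 1.72% of miRNA reads in the TailorMix libraries, 1.01% and 0.958% for TruSeq, and 0.650% and 0.638% for NEBNext.

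**Figure D2:**
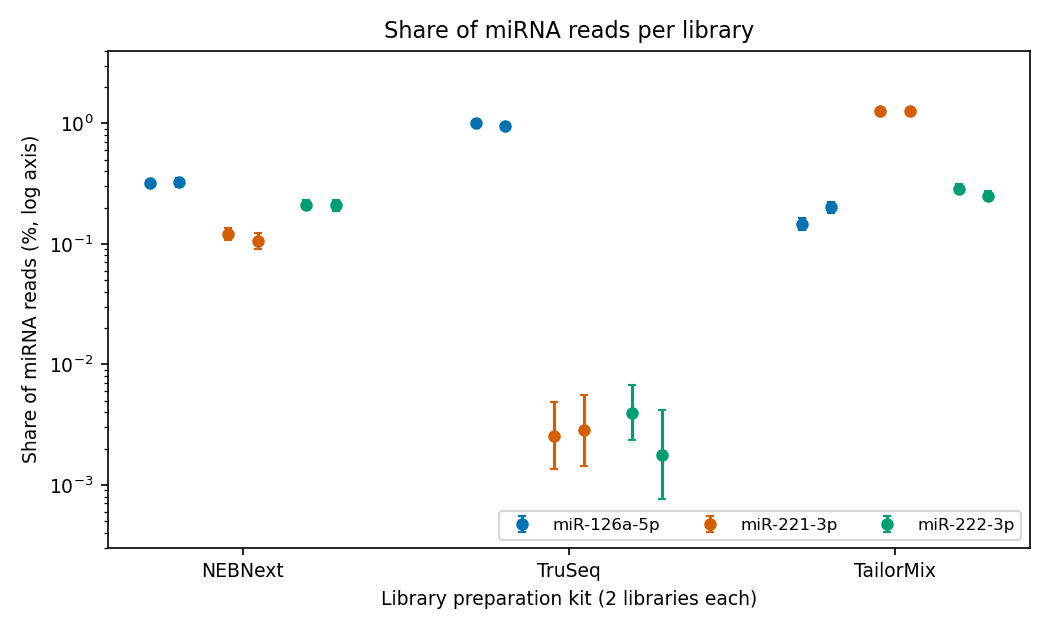
Share of miRNA reads of miR-126a-5p, miR-221-3p and miR-222-3p in each of the 6 libraries, on a log axis in percent. Points are single libraries, left to right replicate 1 and 2, and bars are 95% Wilson intervals. miR-126a-5p was highest with TruSeq at 1.01% and 0.954%, where miR-221-3p and miR-222-3p were at most 0.00398%.

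The quasi-likelihood test of edgeR was then run on the counts of all miRNAs for each pair of kits. In this fit a common estimate of the spread serves all 6 libraries and TMM normalisation takes most miRNAs as unchanged. The calls below, of 68.6% to 77.5% of the tested miRNAs, do not meet the latter assumption. Replicates also differed more with TruSeq (chi-square per degree of freedom 19.4) than with NEBNext (2.41) or TailorMix (1.70). The shared spread may thus be too small for TruSeq, and the adjusted p-values with it. A miRNA was tested where 2 or more libraries had 4 or more counts of it, as for 360 of 788, among them 3 of the 4 members. miR-126a-3p did not enter. Benjamini-Hochberg adjustment was over the 360, and a call is an adjusted p under 0.05. The 3 contrasts share libraries and are not independent of each other. The medians of all log2 fold changes were not 0, so the distance of a member from this median is also given.

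From NEBNext to TruSeq all 3 tested members were called, 1 higher and 2 lower. Beside this, 68.6% of the tested miRNAs were called in this comparison, 26.1% higher and 42.5% lower. miR-126a-5p rose by a log2 fold change of 2.69 (SE 0.13, adjusted p = 2.51e-19). miR-221-3p fell by 4.32 (SE 0.24, adjusted p = 1.19e-17) and miR-222-3p fell by 5.05 on the log2 scale (SE 0.25, adjusted p = 6.10e-19). Relative to the median of all tested miRNAs (-0.52), the differences were 3.21 for miR-126a-5p, -3.79 for miR-221-3p and -4.52 for miR-222-3p. By the size of the change, they ranked 146th, 77th and 57th of 360. With the total of miRNA reads as library size in place of TMM, the log2 fold changes were 1.62 for miR-126a-5p, -5.38 for miR-221-3p and -6.11 for miR-222-3p. Without TruSeq library 1, that of miR-222-3p was -5.88.

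From TruSeq to TailorMix the directions turned, and all 3 were called again, 2 higher and 1 lower, against 70.6% of all tested miRNAs called, 41.7% higher and 28.9% lower. miR-221-3p rose by a log2 fold change of 8.45 (SE 0.20, adjusted p = 2.81e-28), the 13th largest change in this comparison. miR-222-3p rose by 6.05 (SE 0.24, adjusted p = 9.27e-22). miR-126a-5p fell by 2.91 on the log2 scale (SE 0.13, adjusted p = 6.09e-20). Relative to the median of 0.50, these were 7.94, 5.55 and -3.42. The fold changes of miR-221-3p and miR-222-3p against TruSeq rest on 5 to 14 reads per TruSeq library, and that of miR-222-3p was 6.71 without TruSeq library 1.

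From NEBNext to TailorMix 2 members were called, both higher, against 77.5% of the tested miRNAs called, 39.2% higher and 38.3% lower. miR-221-3p rose by a log2 fold change of 4.13 (SE 0.13, adjusted p = 3.06e-24), and miR-222-3p rose by 1.01 (SE 0.14, adjusted p = 1.43e-07). miR-126a-5p had a log2 fold change of -0.23 (SE 0.13, adjusted p = 0.108), which lay at the median of all miRNAs (-0.24). With the total of miRNA reads as library size, the medians of all miRNAs moved to -1.48 from NEBNext to TruSeq, -0.88 from NEBNext to TailorMix and 0.91 from TruSeq to TailorMix. The calls split into 61 higher and 191 lower from NEBNext to TruSeq, in place of 94 and 153, and into 108 and 172 from NEBNext to TailorMix, in place of 141 and 138. Under that scaling miR-126a-5p was called lower with TailorMix than with NEBNext, with a log2 fold change of -0.88 (adjusted p = 7.13e-14), miR-221-3p was higher by 3.48 and miR-222-3p by only 0.35 (adjusted p = 0.00532). Relative to the medians, they stood at 0.0032, 4.36 and 1.24, close to the values under TMM. Another scaling shifts all miRNAs of a contrast by nearly the same amount, so this closeness was given in advance. Leaving out TailorMix library 1 turned the sign for miR-126a-5p to 0.25 (adjusted p = 0.131), whereas it was called, from -0.32 to -0.46, without either NEBNext library or either TruSeq library. Without TailorMix library 2 it was -0.37 (adjusted p = 0.0551).

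**Figure D3:**
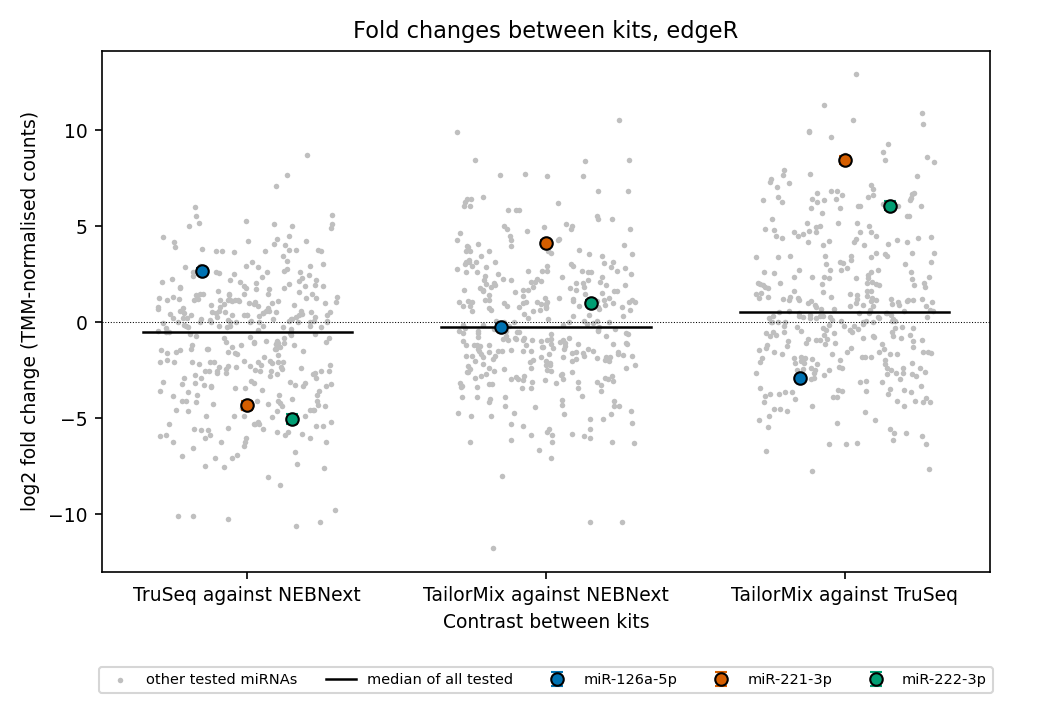
Log2 fold changes of TMM-normalised counts in the 3 contrasts between kits, from edgeR, for the 360 tested miRNAs. Coloured points are the members with bars of 1 SE, which are mostly smaller than the points, grey points are all other miRNAs spread sideways at random, and the black line is the median of all. miR-221-3p reached 8.45 and miR-222-3p 6.05 from TruSeq to TailorMix, where miR-126a-5p stood at -2.91.

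The pair with the shared seed did not keep a constant proportion. miR-221-3p made up 36.4% (exact interval 32.9% to 39.9%) and 33.7% (29.6% to 37.9%) of the reads of both miRNAs with NEBNext, and 81.7% (80.2% to 83.0%) and 83.5% (82.1% to 84.8%) with TailorMix. With TruSeq it made up 39.1% (19.7% to 61.5%) and 61.5% (31.6% to 86.1%), from only 23 and 13 reads. miR-222-3p was thus the larger in both NEBNext libraries and miR-221-3p in both TailorMix libraries, and the depth with TruSeq did not show which was larger. Pooled over the TruSeq libraries, 17 reads of miR-221-3p stood beside 19 of miR-222-3p, a share of 47.2% (30.4% to 64.5%).

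The ratio of miR-221-3p to miR-222-3p was 4.45 and 5.04 for TailorMix, 0.643 and 1.60 for TruSeq, and 0.571 and 0.507 for NEBNext. Library size and normalisation cancel in this ratio. Its geometric mean was 8.80-fold higher with TailorMix than with NEBNext, against 1.46-fold for 1 pooled SD within kits (two-sided exact permutation p = 0.0667 for the grouping into kits). Most of this SD came from the TruSeq libraries, with 23 and 13 reads of both miRNAs. For comparison within a library across the hairpins, TruSeq gave 393 and 336 reads of miR-126a-5p for each read of miR-221-3p, NEBNext 2.62 and 3.05, and TailorMix 0.115 and 0.158. The leading listed member changed from miR-126a-5p to miR-221-3p with the TailorMix kit in both libraries.

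**Figure D4:**
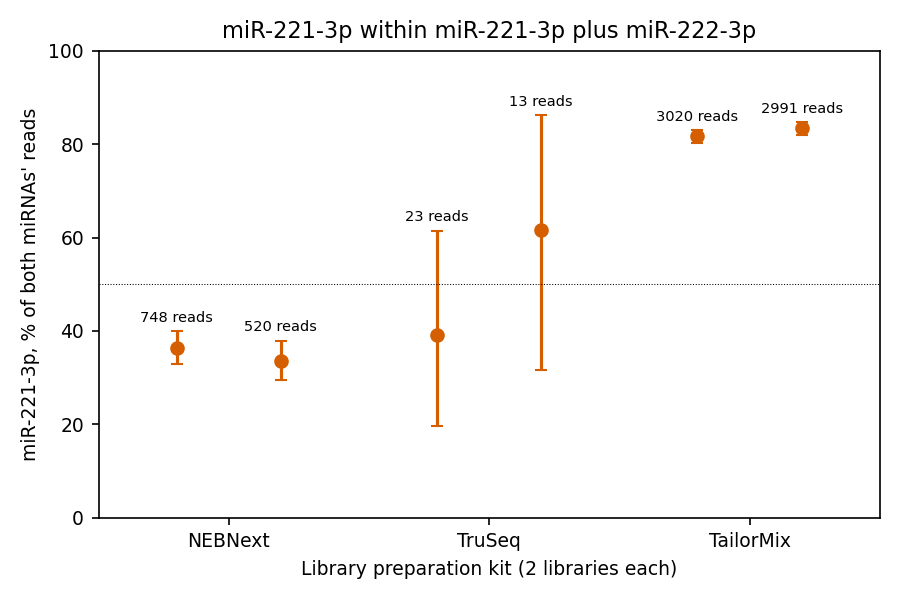
Reads of miR-221-3p as a percentage of the reads of miR-221-3p and miR-222-3p together, for each of the 6 libraries, with exact 95% intervals and the number of reads above each point. The NEBNext libraries lie at 36.4% and 33.7% and the TailorMix libraries at 81.7% and 83.5%, and the TruSeq intervals, from 23 and 13 reads, cover the dotted line at equal numbers.

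Patterns over the 6 libraries were compared by the root mean square difference of log2 shares, each centred on its own mean and with 1 count added. This is a description over 6 libraries that share 3 kits. miR-222-3p stood at a distance of 1.36 from miR-221-3p, the 13th nearest of 359 other miRNAs, whose median distance from miR-221-3p was 3.35. Ranked from miR-222-3p, miR-221-3p was the 30th nearest, with a median distance of 2.67 over all. miR-126a-5p lay at 4.63 from miR-221-3p and at 3.99 from miR-222-3p, at places 315 and 325 by distance from these miRNAs. The nearest to miR-221-3p was MIMAT0000743 (distance 0.591), listed with 13 and 10 reads by NEBNext, 0 by TruSeq, and 93 and 102 by TailorMix. The nearest to miR-222-3p was MIMAT0000673 (distance 0.461), with 230 and 165, 10 and 2, and 528 and 506 reads in the same order of kits. For miR-126a-5p the nearest, MIMAT0025167 (distance 0.198), had only 1 and 1, 11 and 8, and 0 and 0 reads in that order. At such counts the distance depends strongly on the 1 count added.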

How the data were processed

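Small RNA libraries of mouse serum were made with 3 kits, 2 libraries each, grouped by the kit in the sample labels. The members and the lists of other miRNAs were chosen with earlier results of these data known. The values are counts deposited by the authors, raw and per library, of reads on each miRNA and on each sequence of another small RNA class. Per the labels and the methods, the authors trimmed adaptors (Cutadapt 1.8.1), filtered on length and quality, mapped without mismatches (Bowtie 1.1.2, GRCm38) and annotated reads by matching positions with miRBase and other annotations. Reads on positions shared by annotated miRNAs may thus have been given to one of them. From the counts, shares with Wilson intervals, ratios and exact permutation tests were computed (Python 3.11.15, scipy 1.17.1, pandas 2.3.3), and counts of every miRNA passing the filter were fitted in edgeR 4.0.16 (under R 4.3.3), the SE being taken as the log2 fold change over the root of the F statistic. The scripts were tested on simulated data. DESeq2 1.42.0, other scalings, filters, subsets of libraries and the replicate number as a block were alternatives. The miRNAs given with counts are the members and, for each, the miRNA with the nearest pattern. Further lists of platelet, vessel and blood cell miRNAs had been set but could not be matched to identifiers, and planned tests of the miR-126a arm ratio were not possible with a 3p count of 0. Sequences and positions are from RefSeq and GENCODE, both on GRCm38.

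The replicates of each kit differed by more than counting noise (chi-square per degree of freedom 2.41 for NEBNext, 19.4 for TruSeq and 1.70 for TailorMix) and were counted as separate. Depth ranged from 165139 to 351758 miRNA reads, so that 3 counts were 0.000853% to 0.00182% of them.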

Additional observations from a re-analysis of the deposited data

How the results depend on the processing

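Of the log2 fold changes of the listed members in the 3 contrasts, all but that of miR-126a-5p from NEBNext to TailorMix kept their direction and their call under every alternative run. These were DESeq2 size factors, total miRNA reads as library size, DESeq2, no filter or a minimum of 10 counts, only the 4 libraries of a contrast, the replicate block and each library left out. That of miR-126a-5p, -0.23 and not called, was called at -0.88 with total miRNA reads as library size, at -0.28 with a minimum of 10 counts and at -0.35 with only the 4 libraries of the contrast. Without single libraries it lay between -0.46 and 0.25, the last without TailorMix library 1, and the cause was not tested. With each library left out, the log2 fold change from NEBNext to TailorMix ranged from 3.91 to 4.40 for miR-221-3p. For miR-222-3p it ranged from 0.78 to 1.21. With all annotated reads as denominator, the log2 difference of TruSeq over TailorMix for miR-126a-5p moved from 2.52 to 2.20, NEBNext then being the lowest kit, and that of TailorMix over TruSeq for miR-221-3p moved from 8.88 to 9.19. Of shares of miRNA reads, the log2 difference between these kits without single libraries ranged from 2.29 to 2.74 for miR-126a-5p, from 8.81 to 8.96 for miR-221-3p and from 6.07 to 7.24 for miR-222-3p, where TruSeq library 1 and 2 set the ends.

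The labels give each kit sera numbered 1 and 2, without stating whether a number means the same serum in every kit. Over 90 miRNAs, the difference between replicates 1 and 2 of NEBNext correlated at 0.138 with that of TruSeq. With TailorMix the correlation was 0.180, and between TruSeq and TailorMix it was 0.0370. These values cannot tell whether the sera were the same, since noise within libraries lowers them too. The main fit had no replicate block, as the study states no pairing for the kits. With the replicate block, 232, 250 and 235 miRNAs were called in place of 247, 279 and 254, and p for the share of miR-222-3p was 0.133. miR-126a-5p from NEBNext to TailorMix was -0.23 with the block (adjusted p = 0.0575). DESeq2 called 175, 196 and 204. The exact test of kits cannot fall below 0.0667, and depth limits what can be said of miR-221-3p and miR-222-3p with TruSeq, where 5 to 14 reads stand behind each value. Neither the arm ratio of miR-126a between kits nor the test of its arms within libraries, with their alternatives, was run, since the 3p count was 0 in every library.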
